A study of Homo sapiens with 2 samples.

Results

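The miR-183/96/182 cluster is a set of microRNAs cut from one precursor, and it was described here by the major (5p) arm of each of its hairpins. The members were taken by name from the deposited table: hsa-miR-183-5p, hsa-miR-96-5p and hsa-miR-182-5p, 3 of 1450 miRNAs. Small RNA of Jurkat cells, an immortalized human T-lymphocyte line from a leukemia, was sequenced in 2 groups with 1 labelled sample each. According to the study's methods, the cells carried a control lentivirus or a lentivirus that overexpressed the long noncoding RNA PELATON, which the labels call lnc-CEBPB-13, and both lines were kept under puromycin selection. The control group therefore shared the virus and the selection, and no stimulation of the cells was stated. Each group value in the table was the mean of 2 libraries, and the reads of each library were recovered from these means. The libraries are called A and B within a group, and the letters do not pair a library of one group with a library of the other. No source tells whether the 2 libraries of a group stem from different cultures. All p-values therefore measure the spread among libraries, which may be technical.

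MicroRNAs guide Argonaute proteins to messenger RNAs that pair with their seed, the bases near the 5′ end, and so lower the output of these messages. The hairpins MIR183, MIR96 and MIR182 are transcribed together and are known for their high level in sensory organs and epithelia, where mutations in the miR-96 seed cause hearing loss in humans and mice. In mouse helper T cells, miR-182 is induced by IL-2 through STAT5 after activation and promotes clonal expansion by targeting Foxo1, a transcription factor that restrains the growth of resting T cells.

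The mature sequences show how alike the members are, and they are given here 5′ to 3′ from RefSeq on GRCh38.p14, with the seed (bases 2 to 8) in capitals.
hsa-miR-183-5p: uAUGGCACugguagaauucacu
hsa-miR-96-5p: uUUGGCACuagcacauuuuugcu
hsa-miR-182-5p: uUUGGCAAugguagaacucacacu
hsa-miR-1271-5p: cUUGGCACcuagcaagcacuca
The last sequence is not a member. It is shown because miR-1271-5p, from chromosome 5, was the one other miRNA in the table with the seed of a member, that of miR-96-5p. Each member had its own seed. The seeds of miR-183-5p and miR-96-5p were identical at 6 of 7 bases, those of miR-96-5p and miR-182-5p at 6 of 7, and those of miR-183-5p and miR-182-5p at 5 of 7. Over the whole molecule the order was different. Aligned from the 5′ end without gaps, miR-183-5p and miR-182-5p were identical at 18 of 22 bases (81.8%) and shared the run UGGUAGAA behind the seed, whereas miR-183-5p and miR-96-5p were identical at 13 of 22 (59.1%) and miR-96-5p and miR-182-5p at 12 of 23 (52.2%).

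The hairpins lie on the minus strand of chromosome 7. The mature arms ran from 129774988, the first base of miR-183-5p, to 129770406, the last base of miR-182-3p, a stretch of 4583 bp. The arms of MIR183 and MIR96 were 166 bp apart and those of MIR96 and MIR182 were 4226 bp apart. In GENCODE release 29 no gene other than the hairpin genes overlapped this stretch. The nearest protein-coding genes were NRF1, a transcription factor gene on the plus strand (chr7:129611714-129757082), and UBE2H, a ubiquitin-conjugating enzyme gene on the minus strand (chr7:129830732-129952949).

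The recovered libraries held 2052494 and 1177485 reads in the overexpression group and 2615868 and 2663279 reads in the control group, and the 10 most abundant miRNAs took 54.4% to 55.3% of each. Of the 7 listed leukocyte miRNAs, 6 had 1216 normalized counts or more in every library and miR-155-5p had 3 to 13 reads. Their sum of 265662 to 303524 was mostly miR-181a-5p, a regulator of T-cell receptor sensitivity and the second most abundant miRNA of the table (236159 to 258581). PELATON itself is not a miRNA and was not in the table, so its overexpression could not be checked here. In bulk cells, fewer cells of a type and less RNA per cell cannot be told apart.

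All 3 members were detected in every library, and miR-183-5p and miR-182-5p were among the abundant miRNAs of these cells. The mean of both groups ranked 23 of 1450 for miR-183-5p, 28 for miR-182-5p and 132 for miR-96-5p. Normalized counts are reads divided by the size factor of the library. They are compared between members of 22 to 24 bases without a correction for length.

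MiR-183-5p was higher when PELATON was overexpressed. Its normalized read count was 21603 and 26680 in the overexpression libraries A and B, and 13644 and 10726 in the control libraries. Both overexpression libraries were above both control libraries, and the difference was larger than the spread within either group, where the higher library was 1.23 times the lower with overexpression and 1.27 times in controls. The group means were 24142 and 12185, a ratio of 1.98. MiR-183-5p stood at rank 14 and 13 of its library with overexpression and at rank 28 and 39 in controls.

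MiR-182-5p, the member known from mouse helper T cells, showed no such separation. Its normalized read count was 16907 and 12885 with overexpression and 12103 and 13905 in controls. The groups overlapped, since overexpression library B lay below control library B. The group means were 14896 and 13004, a ratio of 1.15. Its rank within the library was nevertheless nearer the top with overexpression, at 21 and 25 against 35 and 29.

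MiR-96-5p was almost level. Its normalized read count was 1281 and 1232 with overexpression and 1333 and 1397 in controls, a ratio of the group means of 0.921. The nearest libraries of the 2 groups (1281 and 1333) lay about as far apart as the libraries within a group. The overexpression libraries were both slightly below the controls. This direction turned when reads were scaled to the library total (log2 ratio 0.12) or to the total without the 10 most abundant miRNAs (0.11). Its rank ran from 127 to 134 over all 4 libraries.

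**Figure D1:**
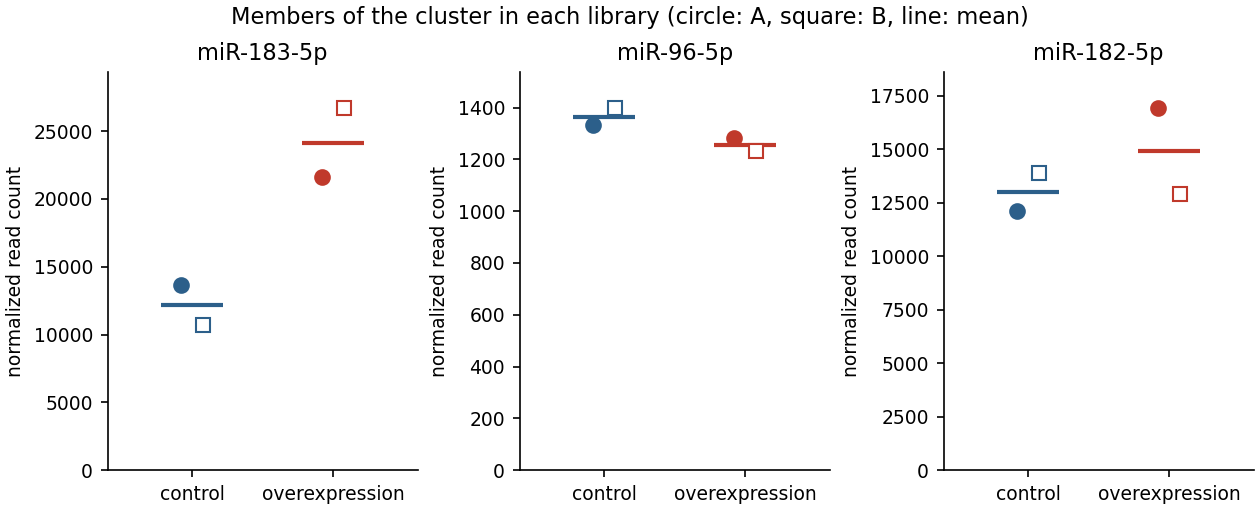
Normalized read counts (linear axes from 0, a separate axis for each member) of miR-183-5p, miR-96-5p and miR-182-5p in the control and overexpression groups; filled circles are library A, open squares are library B and lines are the means of 2 libraries. The groups are apart for miR-183-5p (21603 and 26680 against 13644 and 10726), overlap for miR-182-5p and lie close together for miR-96-5p.

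The differences were tested by limma on log2(normalized count + 1) over the 1115 miRNAs whose mean was 1 or more, and p-values were adjusted by the Benjamini-Hochberg method over all of them. The limma log2 difference of miR-183-5p was 0.99 (SE 0.19, 95% interval 0.56 to 1.42, adjusted p = 0.0250, higher in 2 of 2 overexpression libraries). For miR-182-5p it was 0.19 (SE 0.18, interval −0.23 to 0.61, limma adjusted p = 0.676), and for miR-96-5p −0.12 (SE 0.17, interval −0.50 to 0.26, limma adjusted p = 0.781). Both intervals included 0 and reached further in one direction, up to 0.61 higher for miR-182-5p and 0.50 lower for miR-96-5p. Of the 3 members, 1 therefore passed the test as higher and 0 as lower, beside 1.88% of all miRNAs tested as higher and 3.05% as lower. The members were more abundant than many of these miRNAs. With only the 362 miRNAs at a mean of at least 50 tested, limma called 31 as higher, miR-183-5p among them, and 55 as lower. The libraries of the groups did not overlap for 2 members, 1 in each direction, and across all tested miRNAs this held for 22.4% as higher and 23.8% as lower. At a 2-fold ratio of the group means with a pseudocount of 1, a rule without a test, 0 of the 3 members counted, beside 15.6% of miRNAs as higher and 14.7% as lower. Of the 362 miRNAs at a mean of at least 50, this rule counted 21 as higher and 31 as lower.

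MiR-183-5p was at the edge of that 2-fold line, and its call depended on the setting. The log2 ratio of the group means was 0.99 with the deposited size factors. It passed 1 when reads were scaled to the library total (1.22) or to the total without the 10 most abundant miRNAs (1.21), and also when overexpression library A (1.13) or control library A (1.17) was left out. Under these 2 scalings the median log2 ratio of all 1115 miRNAs rose as well, from 0.06 to 0.27 and 0.26. The limma call also depended on the setting. With a prior variance that did not follow abundance the adjusted p was 0.376 at the same difference, and limma then called 0 miRNAs in all (142 at an unadjusted p under 0.05). With any 1 of the 4 libraries left out it was between 0.224 and 0.414, at differences of 0.82 to 1.16. In those 4 fits limma assumed the lone library to vary like the other group. It called 0 miRNAs in 3 of them (130 to 199 at an unadjusted p under 0.05) and 70 when control library B was left out.

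**Figure D2:**
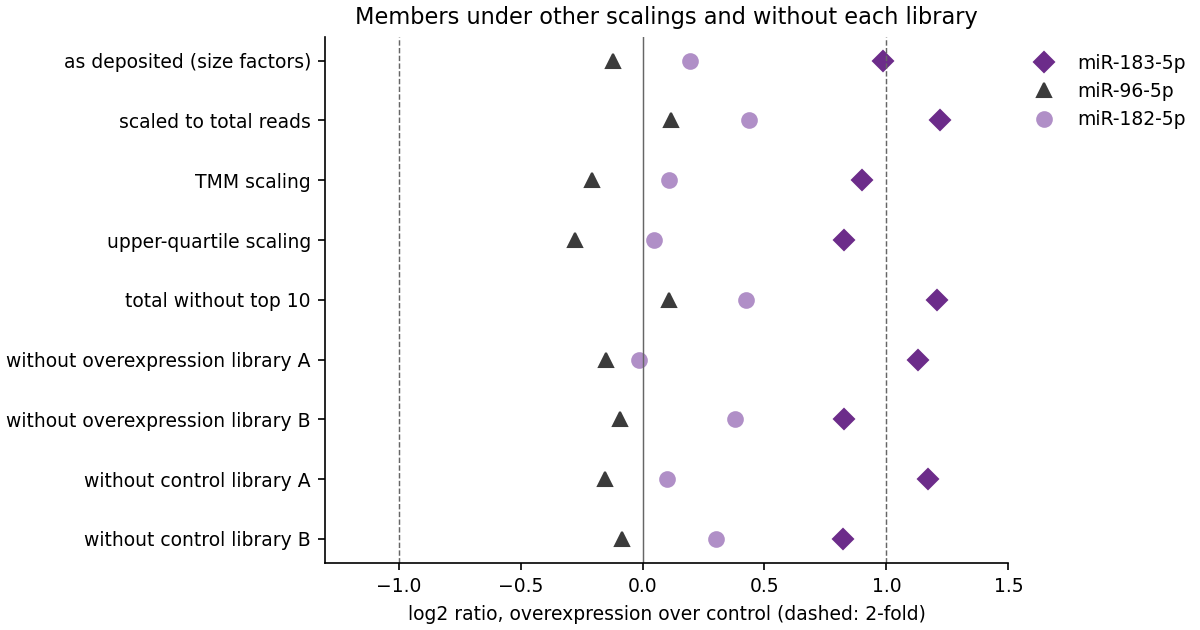
Log2 ratio of the group means (overexpression over control) of miR-183-5p (diamonds), miR-96-5p (triangles) and miR-182-5p (circles) with the deposited scaling, under 4 other scalings and without each library in turn; dashed lines mark 2-fold. MiR-183-5p lies between 0.82 and 1.22 in every row shown, while miR-96-5p changes sign under the 2 scalings to read totals and miR-182-5p without overexpression library A (−0.01).

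Among all miRNAs, the place of miR-183-5p was one of high abundance and moderate difference. Limma called 21 miRNAs as higher and 34 as lower. Of the 21, miR-183-5p had the highest mean level, but it ranked 17 by the size of its difference. In the 39 miRNAs with a mean of at least 10000, limma called 9, of which 2 were higher: miR-183-5p and miR-221-3p, a miRNA of activated and proliferating cells that targets the cell cycle inhibitor p27. MiR-183-5p had the highest log2 ratio of these 39.

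**Figure D3:**
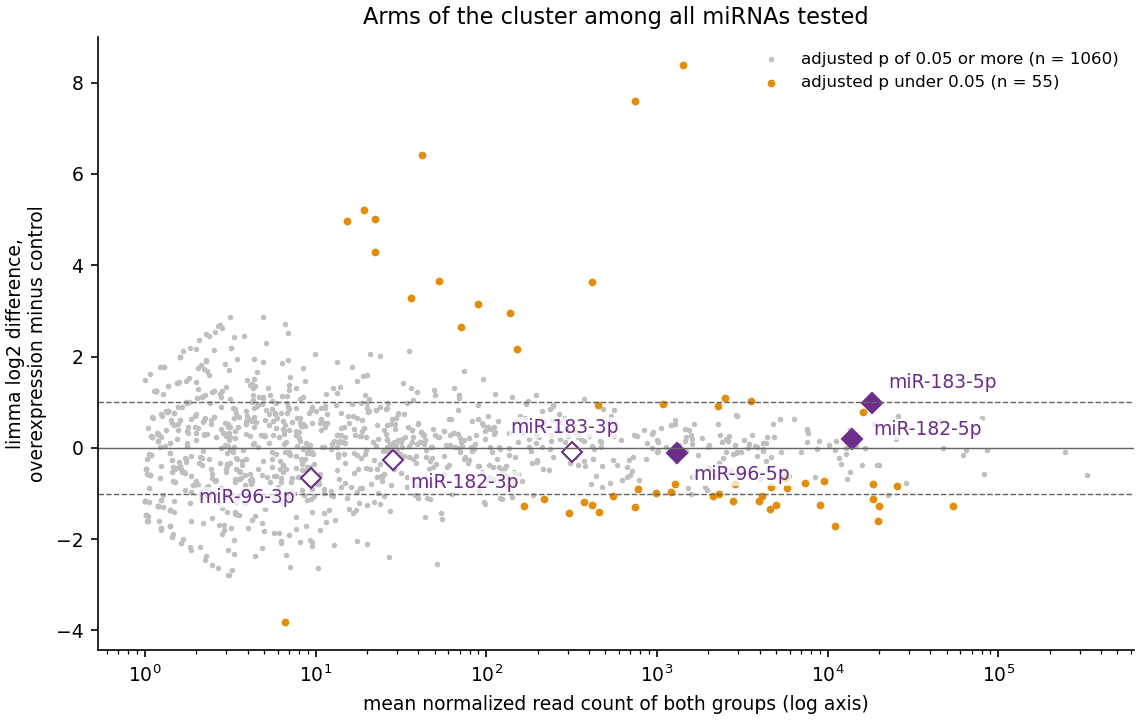
Limma log2 difference (overexpression minus control, 2 libraries in each group) of 1115 miRNAs against their mean normalized read count on a log axis; orange points had an adjusted p under 0.05, filled diamonds are the members and open diamonds the opposite arms of their hairpins, and dashed lines mark 2-fold. MiR-183-5p lies at the right of the plot near the upper dashed line (0.99), while the other 5 arms lie among the grey points.

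Proportions within a library do not depend on how the libraries were scaled, and in a cluster cut from one precursor they show the balance of the members. MiR-183-5p made up a larger part of the cluster with overexpression. Of the reads of the 3 members, it took 54.3% (95% exact binomial interval 53.8 to 54.8) and 65.4% (64.8 to 66.0) in the overexpression libraries and 50.4% (49.9 to 50.9) and 41.2% (40.7 to 41.8) in the control libraries. Both overexpression libraries were above both controls, although overexpression library A and control library A lay only a few points apart. These intervals treat reads as independent, which reads without molecular identifiers need not be, and they leave out the spread between libraries. Within each group the shares of the 2 libraries lay outside each other's intervals.

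The shares sum to 100%, so that a larger share of miR-183-5p leaves less for the others. MiR-182-5p made up 42.5% and 31.6% of the members' reads with overexpression and 44.7% and 53.4% in controls. MiR-96-5p was the minor member throughout, at 3.22% and 3.02% with overexpression and 4.92% and 5.37% in controls. The most abundant member was miR-183-5p in both overexpression libraries and in control library A, and miR-182-5p in control library B. In controls, the levels of the 2 did not differ beyond their spread, and their order turned between the libraries.

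**Figure D4:**
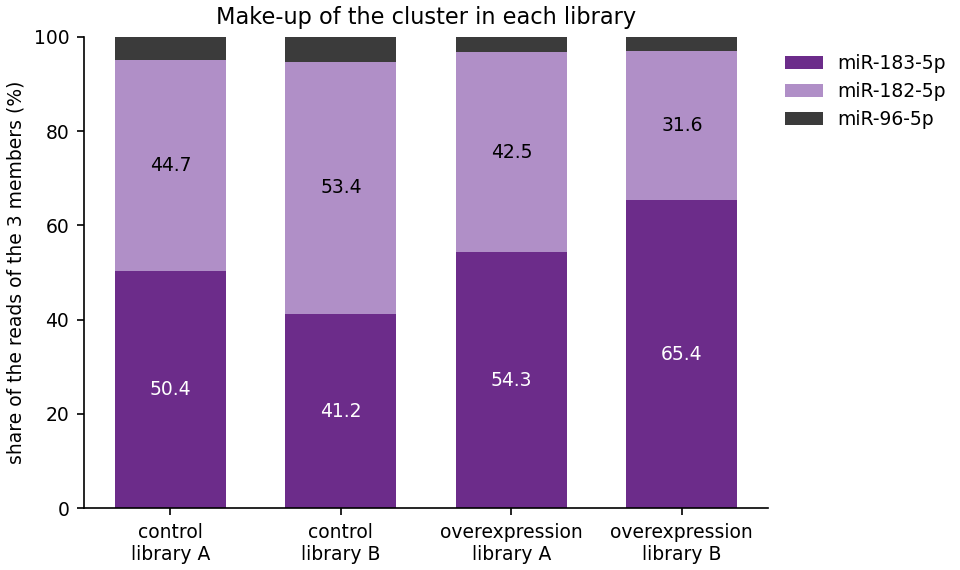
Share of miR-183-5p, miR-182-5p and miR-96-5p in the reads of the 3 members in each of the 4 libraries (stacked bars from 0 to 100%, with the shares of miR-183-5p and miR-182-5p printed). The share of miR-183-5p is 54.3% and 65.4% with overexpression and 50.4% and 41.2% in controls, and the thin top section is miR-96-5p.

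Each pair of members was compared within libraries, 3 pairs in all. There were 16.9 and 21.6 reads of miR-183-5p for each read of miR-96-5p with overexpression and 10.2 and 7.68 in controls, a difference of 1.11 on the log2 scale. For miR-183-5p over miR-182-5p the ratio was 1.28 and 2.07 against 1.13 and 0.771, a difference of 0.80. For miR-96-5p over miR-182-5p it was 0.0758 and 0.0957 against 0.110 and 0.101, a difference of −0.31. In each pair the groups did not overlap. With 2 libraries against 2, the two-sided exact permutation test gave p = 0.333 for each pair, the smallest value it can give, and 0.333 after adjustment over the 3 pairs, so this design cannot pass a threshold of 0.05.

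The 2 abundant members varied in opposite directions between libraries of the same group. With overexpression, library B had the higher miR-183-5p and the lower miR-182-5p, and in controls library A did. The higher library of a group was 1.23 (overexpression) and 1.27 (control) times the lower for miR-183-5p, 1.31 and 1.15 times for miR-182-5p, and 1.04 and 1.05 times for miR-96-5p.

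The sum of the 3 members was steadier than either abundant member. It was 39791 and 40797 normalized counts with overexpression and 27080 and 26027 in controls. The libraries of each group lay close together and the groups were well apart. Most of this difference was in miR-183-5p, with group means of 24142 and 12185. Those of miR-182-5p were 14896 and 13004, with overlapping groups, and those of miR-96-5p were 1256 and 1365, slightly lower with overexpression. The log2 ratio of the means, 40294 and 26554, was 0.60, and it stayed between 0.57 and 0.63 when any 1 library was left out and between 0.44 and 0.84 under the other scalings. As a share of all miRNA reads, the members took 2.13% and 2.24% with overexpression and 1.29% and 1.15% in controls. This sum was chosen after the values were seen and is given as a description.

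The opposite (3p) arms are cut from the same hairpins, are usually degraded, and were scarce here. They are shown with their seeds in capitals, since their levels can be set against the 5p arm of the same molecule.
hsa-miR-183-3p: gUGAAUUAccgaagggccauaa
hsa-miR-96-3p: aAUCAUGUgcagugccaauaug
hsa-miR-182-3p: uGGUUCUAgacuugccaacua
MiR-183-3p did not share the difference of its 5p partner. Its normalized read count was 319.7 and 300.6 with overexpression and 350.6 and 308.8 in controls, and the groups overlapped (limma log2 difference −0.09, SE 0.21, adjusted p = 0.879). MiR-182-3p was at 26.3 and 24.8 against 36.8 and 26.3 (limma log2 difference −0.28, SE 0.44, adjusted p = 0.808). MiR-96-3p had between 5 and 21 reads in a library and was too low for its spread to be judged.

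Within MIR183 the balance of the arms lay apart between the groups, but limma did not call it among 149 hairpins. There were 67.6 and 88.8 reads of miR-183-5p for each read of miR-183-3p with overexpression and 38.9 and 34.7 in controls. Both overexpression libraries were above both controls, and this ratio, like the make-up of the cluster, is free of library scaling. For single miRNAs the groups lay apart in 22.4% as higher and 23.8% as lower, and the share of hairpins apart in their arm ratio was not counted. Among 149 hairpins with both arms at a mean of at least 10, the log2 difference of MIR183 was 1.07 (SE 0.28, 95% interval 0.41 to 1.74, limma adjusted p = 0.104). Limma called 0% of the 149 as higher or lower (33 had an unadjusted p under 0.05). The quartiles of the difference over these hairpins were −0.76 and 0.47. Among the 86 hairpins with both arms at a mean of at least 50, a limit chosen after seeing the data, the adjusted p by limma was 0.00290, with 5.81% of hairpins called as higher and 25.6% as lower. With a pseudocount of 5 in place of 1 it was 0.0350, with 0.671% of the 149 hairpins called as higher and 6.71% as lower. With 1 library left out it ran from 0.0550 to 0.396.

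The other hairpins of the cluster showed no separation of the groups in this balance. For MIR182 the 5p over 3p ratio was 642 and 520 with overexpression and 329 and 529 in controls, and the groups overlapped (log2 difference 0.46, SE 0.34, 95% interval −0.36 to 1.28, limma adjusted p = 0.428). For MIR96 it was 235 and 159 against 208 and 78.4, with 5 to 21 reads behind each denominator, and it was not tested.

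**Figure D5:**
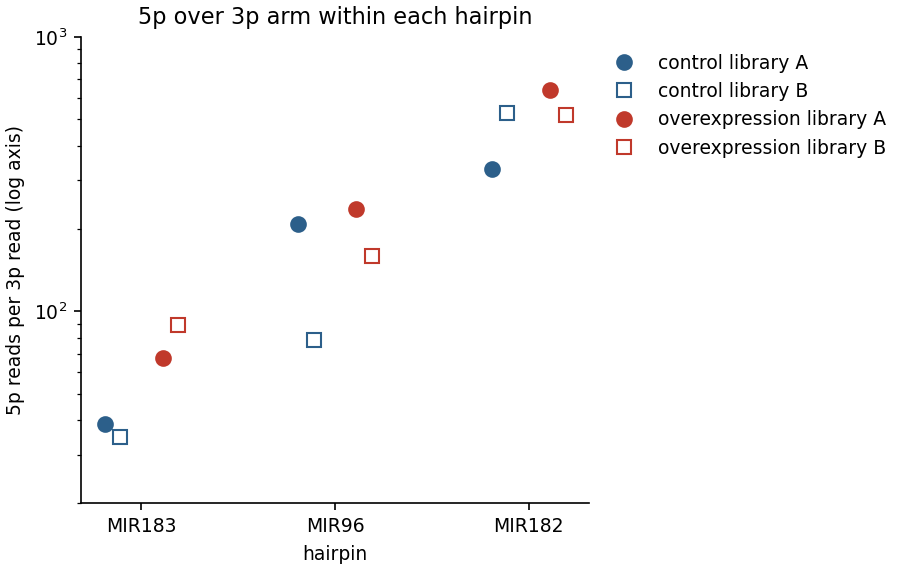
Reads of the 5p arm per read of the 3p arm (log axis) of MIR183, MIR96 and MIR182 in each library; blue is control, red is overexpression, filled circles are library A and open squares library B. For MIR183 the overexpression libraries (67.6 and 88.8) lie above the controls (38.9 and 34.7), whereas the groups overlap for the other hairpins.

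MiR-1271-5p, which carries the seed of miR-96-5p, was far less abundant than the member. Its normalized read count was 56.3 and 91.4 with overexpression and 76.8 and 62.8 in controls, with overlapping groups (limma log2 difference 0.05, SE 0.36, adjusted p = 0.961).

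Other miRNAs linked to T cell activation were set beside the cluster. The lists were chosen with earlier results of these data known, so the counts within them are descriptions. Of 12 miRNAs listed as raised on activation, limma called 2 as higher and 1 as lower, beside 1.88% and 3.05% of all miRNAs. All but miR-155-5p had a mean above 50, and of the 362 miRNAs at a mean of at least 50 limma called 31 as higher and 55 as lower. At an unadjusted p under 0.05 the list had 2 higher and 6 lower (miR-17-5p, miR-18a-5p, miR-20a-5p, miR-92a-3p, miR-21-5p and miR-132-3p). Over all 1115 miRNAs, 94 were higher and 113 lower at this threshold. Of the 6 lower in the list, miR-17-5p, miR-18a-5p, miR-20a-5p and in part miR-92a-3p come from one polycistron and are not separate observations. The median log2 ratio of the list was −0.32, beside 0.06 over all 1115 miRNAs. Those of the list called as higher were miR-146a-5p and miR-221-3p. MiR-146a-5p, a feedback inhibitor of NF-κB signaling, was at 2974 and 2954 against 1739 and 1415 (a log2 ratio of 0.91, limma adjusted p = 0.0250). MiR-221-3p was at 20974 and 19583 against 13626 and 10094 (a log2 ratio of 0.77, limma adjusted p = 0.0495). Called as lower was miR-17-5p, a proliferation-promoting member of another polycistron (13374 and 9681 against 20265 and 37214, a log2 ratio of −1.32, limma adjusted p = 0.0430). MiR-155-5p, a classical activation miRNA of primary lymphocytes, was close to absent in both groups, at group means of 6.78 and 7.12.

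Of 7 miRNAs listed as lowered on activation, 0 were called as higher and 5 as lower by limma, beside 1.88% and 3.05% of all miRNAs, and the median log2 ratio was −0.85. All 7 had a mean above 50, and of the 362 miRNAs at a mean of at least 50 limma called 31 as higher and 55 as lower. The 5 were miR-26b-5p, miR-29a-3p, miR-29b-3p, miR-29c-3p and miR-30b-5p. Those of the miR-29 family need not be separate observations. This list was also chosen with earlier results of these data known. The miR-29 family restrains interferon gamma and the T-helper 1 program in mouse T cells. MiR-29c-3p, for example, was at 3338 and 3334 with overexpression and 5814 and 6197 in controls. MiR-150-5p, a miRNA of resting lymphocytes, was at 1406 and 1216 against 1858 and 2174 and did not pass the test (limma adjusted p = 0.105).

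Since the cluster is abundant in epithelia and sensory neurons, miRNAs of other cell types were examined in the same libraries. Of all miRNAs tested, limma called 1.88% as higher and 3.05% as lower. The 7 leukocyte miRNAs had 0 calls as higher and 1 as lower (miR-142-5p), and their median log2 ratio was −0.28. The 8 epithelial miRNAs summed to 917 and 787 normalized counts with overexpression and 1030 and 1076 in controls, most of it miR-200c-3p (558 to 771). Limma called 0 of the 8 (1, miR-203a-3p, had an unadjusted p under 0.05), and their median log2 ratio was −0.45. MiR-375-3p was at 35.4 and 46.5 against 33.6 and 17.0, and miR-429 at 0.908 and 0 against 0 and 3.39. Whether cells of this kind had a part in the result was not tested. The 4 neuronal miRNAs summed to 50586 and 52356 against 57751 and 52871, most of it miR-128-3p, with 1 called as higher, 1 as lower and a median log2 ratio of −0.22. The one called as higher, miR-124-3p, the defining miRNA of neurons, was scarce, at 35.4 and 52.7 with overexpression and at 0 and 0.848 in controls. The one called as lower, miR-9-5p, another miRNA of the nervous system, was far more abundant, at 4124 and 4058 against 6738 and 8370 (limma adjusted p = 0.0268).

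Muscle miRNAs differed more between the groups than the members did. Of 5 striated muscle miRNAs in the table, limma called 4 as higher and 0 as lower, beside 1.88% and 3.05% of all miRNAs. The list summed to 4078 and 4891 normalized counts with overexpression and 56.0 and 33.1 in controls. MiR-1-3p was at 2826 and 2869 against 19.2 and 2.55, and miR-133a-3p at 1110 and 1867 against 9.61 and 4.24. MiR-206 and miR-133b were at 0 in both control libraries, and miR-499a-5p was at 30.9 and 21.7 against 27.2 and 26.3. The 4 called miRNAs were higher in the same group as miR-183-5p, at a much larger fold, while miR-499a-5p was not called (limma adjusted p = 0.968). Their part in the result for miR-183-5p was not tested.

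The 5 miRNAs whose profile over the 4 libraries was nearest to the mean profile of the members were miR-345-5p, miR-106b-3p, miR-330-5p, miR-181c-3p and miR-744-5p, at distances of 0.050 to 0.107 on the log2 scale among 359 miRNAs with a mean of at least 50. MiR-345-5p was at 8802 and 8467 with overexpression and 6602 and 6471 in controls. Single members lay far from one another in the same measure, at 1.17 between miR-183-5p and miR-96-5p, 1.02 between miR-183-5p and miR-182-5p and 0.40 between miR-96-5p and miR-182-5p. Each had nearer neighbors outside the cluster: miR-760 for miR-183-5p (0.074), miR-181a-5p for miR-96-5p (0.038) and miR-181c-5p for miR-182-5p (0.085). With 4 libraries these distances are a description.

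The spread among the members was set beside that of other polycistrons, with the most abundant arm of each hairpin that maps to a single hairpin gene. Among 9 polycistrons with at least 3 hairpins measured at a mean of 10 or more and lying within 10 kb of each other, the levels of the miR-183/96/182 members spanned 3.79 on the log2 scale, where 6 others spanned more and 2 less. Their log2 ratios between the groups spanned 1.11, where 5 others spanned more and 3 less. The median span over the 9 was 4.74 for levels and 1.29 for ratios. RefSeq sequences were matched to 1285 of the 1450 miRNAs (88.6%), so the other polycistrons may lack hairpins. Arms made by more than 1 hairpin gene, such as miR-92a-3p and miR-19b-3p, were left out, and some of the wider polycistrons were therefore represented in part by scarce opposite arms (miR-92a-1-5p and miR-19b-1-5p in the miR-17 cluster, miR-92a-2-5p in the miR-363 cluster). Their spans of level are thus not like for like with that of the members, which are all major arms.

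Matches to the members' seeds were sought in 3 transcripts, on the transcript strand. The letters complementary to bases 2 to 8 are GTGCCAT for miR-183-5p, GTGCCAA for miR-96-5p and TTGCCAA for miR-182-5p. The last 6 letters are the same for miR-96-5p and miR-182-5p, TGCCAA. The PELATON transcript of 539 bases held 0 matches to bases 2 to 8 or 2 to 7 of any member, and 2.76% to 3.77% of 5173 long noncoding transcripts of like length held a match to bases 2 to 8 of a given member. A match to bases 2 to 7 of a given member was held by 16.0% to 17.2% of them. The 3′ UTR of GATA3, the master transcription factor of T-helper 2 cells and a gene the study examined, held 0 matches to bases 2 to 8 and held TGCCAA once. Of 1174 UTRs of like length, 32.1% held TGCCAA at least once.

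The 3′ UTR of FOXO1, on chromosome 13, was examined as the known target of the cluster. It held GTGCCAT 2 times and GTGCCAA 2 times, and 23.3% and 18.1% of 993 UTRs of like length held these letters at least once. It held TTGCCAA 0 times, so miR-182-5p had no match to bases 2 to 8 in this UTR. MiR-182-5p had matches to bases 2 to 7 at the same 2 places as miR-96-5p. Each was followed by an A, opposite the first base of the miRNA. Of the UTRs of like length, 64.4% held TGCCAA and 27.6% held TTGCCAA. The sites are shown as 22 bases of the message on the minus strand of GRCh38, from GENCODE release 29, with the seed match in capitals.
FOXO1 site for miR-183-5p, chr13:40558806-40558827: tgtagataaggactGTGCCATt
FOXO1 site for miR-183-5p, chr13:40556848-40556869: gtcactttcctcccGTGCCATt
FOXO1 site for miR-96-5p, chr13:40558778-40558799: ttcattacaatgaaGTGCCAAa
FOXO1 site for miR-96-5p, chr13:40556903-40556924: tgtaactgaacttgGTGCCAAa
The first site of miR-183-5p and the first of miR-96-5p lay close together near the start of the UTR. A match describes letters and not binding, and FOXO1 messages were not measured in these libraries.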

How the data were processed

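The authors counted small RNA reads per miRNA, divided them by DESeq size factors and deposited the group means of these normalized counts, a signal value. The study's methods name a small RNA library kit and the labels an mRNA kit. GRCh38.p14 comes from the submitters' processing notes, and the aligner, adapter trimming and miRNA annotation are not given in the sources used here. The columns holding the authors' own fold changes and p-values were not used.

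Here each group mean was resolved into whole reads of 2 libraries (relative tolerance 1e-13), and 100% of 1450 values in both groups had 1 solution. Size factors were 1.10 and 0.645 (overexpression) and 1.25 and 1.18 (control). A count model was not applied to the recovered reads. Libraries were compared by limma 3.58.1 in R 4.3.3 on log2(normalized count + 1), with a trended prior variance, a mean of at least 1 and a threshold of 0.05 on the Benjamini-Hochberg adjusted p. The log2 ratio is that of the group means, each plus 1, which understates differences of low miRNAs. Recovery and limma were tested on simulated data. Shares have exact (Clopper-Pearson) intervals. Likeness is the Euclidean distance of centred log2 counts.

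The text names the members, the opposite arms, miRNAs with a member's seed, the 5 miRNAs nearest in profile and miRNAs of the fixed lists; a few counts made other names necessary, chosen after their values were seen. The members and lists were chosen with earlier results of these data known. Alternatives were other scalings, pseudocounts, filters and thresholds and leaving out each library.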

Additional observations from a re-analysis of the deposited data

How the results depend on the processing

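The log2 ratio of miR-183-5p stayed positive in every setting tried; it was 1.22 with scaling to total reads. Scaling to total reads or to the total without the 10 most abundant miRNAs moved the median log2 ratio of all miRNAs by 0.21 and 0.20, upper-quartile scaling by −0.15. The log2 ratio of miR-182-5p was 0.43 and 0.42 under the scalings to totals. That of miR-96-5p was 0.12 and 0.11 there, −0.21 with TMM and −0.28 with upper-quartile scaling, and its limma difference reversed to 0.12 and 0.11 under the totals. Relative to the shifted median, miR-96-5p was lower in each of these scalings. The limma difference of miR-183-5p was 0.99 (adjusted p = 0.376) with a prior variance without trend; with planned scalings, pseudocounts and filters the limma adjusted p ran from 0.00986 to 0.0433. Without 1 library the limma differences ran from 0.82 to 1.16 for miR-183-5p and from −0.0097 to 0.38 for miR-182-5p, reversed without overexpression library A.

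Over all miRNAs, limma called 21 as higher and 34 as lower. These counts were 0 and 0 with no trend in the prior (142 at an unadjusted p under 0.05), and with 1 library left out they ran from 0 to 1 and from 0 to 69. The lower count was 8 under either scaling to totals, 56 with upper-quartile scaling and 55 at a mean of at least 50. The 2-fold counts, 174 higher and 164 lower, became 224 and 105 with total reads and 222 and 107 without the top 10 miRNAs. They were 291 and 287 at 1.5-fold, 47 and 23 at 4-fold and 21 and 31 at a mean of at least 50. At that mean 7 polycistrons remained, the cluster included, of which 3 spanned a wider range of levels than the cluster and 3 a narrower one.

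No paired analysis was possible because the labels give 1 sample a group and the library letters carry no pairing. The 2 libraries of each group limit all tests, and the overexpression libraries were the shallower.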
